A study of Mus musculus with 12 samples.

Results

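The genes described here encode the synaptic vesicle release machinery: synaptotagmins, syntaxins and their binding proteins, VAMP and SNAP proteins, complexins, synapsins, SV2 proteins and the active zone proteins RIM, Munc13, Bassoon and Piccolo. They were picked by a rule on gene symbols, and 69 of the 27978 genes in the deposited table met that rule. They fall into 9 families: 17 synaptotagmins, 14 syntaxins, 10 active zone genes, 7 VAMP genes, 6 syntaxin binding proteins, 5 SNAP genes, 4 complexins, 3 synapsins and 3 SV2 genes. Snap91 is counted with the SNAP genes because of its symbol, although its product is the clathrin adaptor AP180 of vesicle recovery and no SNARE. RNA came from hippocampal tissue of mice that had received a fecal microbiota transplantation, in 12 libraries with 4 in each of 3 groups. The groups are titled FMT-CON, FMT-DSS and FMT-SP, and the series design names the last FMT-DSS+SP, where SP is the neuropeptide substance P. The labels expand neither CON nor DSS and give no strain, age, sex, dose or time. They also do not say whether a library is 1 animal, so p-values measure only the spread between these samples, which may be technical. All 3 groups were transplanted, so none shows the tissue without a transplantation.

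At a nerve terminal, vesicles loaded with transmitter dock at the active zone and are made ready for fusion by Munc13 and RIM proteins. A complex of the vesicle SNARE (VAMP) with the plasma membrane SNAREs (syntaxin and SNAP-25) pulls the membranes together, and complexin holds it in check until calcium binds a synaptotagmin. Synapsins tether the reserve of vesicles, and several relatives of these proteins serve fusion elsewhere in the cell, at endosomes, the Golgi apparatus or the plasma membrane of glia.

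Promoter sequence is shown for 3 members that differ in the spread described below. Syn1 is a neuronal gene with a 1.31-fold range, though other members ranged less. Rims3 and Syt9 had the largest SD of log2(FPKM + 1) over the libraries. Each window holds the 250 bases before and the 50 bases after the start of transcription in RefSeq, in assembly GRCm38.p6: chrX:20920869-20921168 (minus strand) for Syn1, chr4:120854549-120854848 (plus strand) for Rims3 and chr7:107370540-107370839 (plus strand) for Syt9. Capitals mark matches, on either strand, to 3 motifs: TTCAGCACC, the left part of the RE1 element read by the neuronal gene repressor REST; TGACGTCA, the cyclic AMP response element; and GGGCGG, the GC box of Sp1-like factors, which reads CCGCCC on the other strand. No match overlaps another in these windows.
Syn1: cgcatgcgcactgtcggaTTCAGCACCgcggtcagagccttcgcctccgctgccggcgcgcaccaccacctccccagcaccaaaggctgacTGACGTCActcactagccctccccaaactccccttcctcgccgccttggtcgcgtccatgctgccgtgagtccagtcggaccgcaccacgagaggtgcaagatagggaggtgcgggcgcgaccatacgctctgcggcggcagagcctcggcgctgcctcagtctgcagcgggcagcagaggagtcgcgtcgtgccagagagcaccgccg
Rims3: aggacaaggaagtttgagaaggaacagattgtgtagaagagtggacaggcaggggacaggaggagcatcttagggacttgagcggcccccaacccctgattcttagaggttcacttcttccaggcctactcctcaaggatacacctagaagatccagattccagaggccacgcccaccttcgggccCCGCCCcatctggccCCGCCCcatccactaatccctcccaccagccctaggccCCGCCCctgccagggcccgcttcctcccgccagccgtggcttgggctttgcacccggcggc
Syt9: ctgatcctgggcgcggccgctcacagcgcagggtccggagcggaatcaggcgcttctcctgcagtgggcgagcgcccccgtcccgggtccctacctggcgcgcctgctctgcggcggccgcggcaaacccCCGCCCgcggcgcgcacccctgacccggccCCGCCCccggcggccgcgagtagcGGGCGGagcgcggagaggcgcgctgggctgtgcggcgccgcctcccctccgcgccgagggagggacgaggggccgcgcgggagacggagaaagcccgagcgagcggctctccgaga

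The Syn1 window holds 1 match to the RE1 part and 1 to the cyclic AMP element, and 0 GC boxes. The Rims3 and Syt9 windows each hold 3 GC boxes and neither of the other motifs. Among members, the RE1 part was found for Syn1 and Unc13a and the cyclic AMP element for Syn1 and Stxbp3. Each motif was in 2.94% of the members' 68 windows, against 0.371% and 1.79% of all 32851 promoter windows in the table. GC boxes were found for 41 of the 53 members with a window, in 66.2% of these windows against 35.7% of all windows. A match is a run of letters and was not tested as a site.

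Levels are FPKM (fragments per kilobase of transcript, scaled to the mapped fragments of the library). They allow for transcript length and depth, but not for differences in RNA composition between libraries. All genes together summed to between 338158 FPKM (FMT-SP 2) and 417421 FPKM (FMT-DSS 4). Of the 69 members, 60 averaged 1 FPKM or more and entered the tests, a share of 87.0% against 44.9% of all genes. A mean of at least 10 FPKM was reached by 40 members, 58.0% against 19.1% of all genes, and 10 members (14.5%, against 1.84%) reached 100 FPKM. The 9 that did not enter were Vamp5, Vamp9, Unc13d, Cplx4, Syn3, Syt8, Syt15, Stxbp4 and Stx11. Vamp5 lay just under the filter at a mean of 0.924 FPKM and Syt14 just above it at 1.52 FPKM. Cplx4, a complexin of retinal ribbon synapses, lay between 0 and 0.114 FPKM. The members together summed to between 3001 FPKM (FMT-DSS 4) and 3809 FPKM (FMT-SP 1).

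Estimated depth was 31.4 to 37.3 M mapped fragments (M, 1000000), so that 1 FPKM in a transcript of 2000 bases rests on 62.9 to 74.5 fragments. Hippocampal neuron markers (Prox1, Neurod6, Wfs1, Fibcd1, Spink8 and C1ql2) were present in all 12 libraries, with a summed level of 130 FPKM in FMT-CON 1 and 175 to 213 FPKM elsewhere. Several libraries stood apart in markers of neighbouring tissue. The 7 thalamus markers summed to 254 FPKM in FMT-CON 1 and 135 FPKM in FMT-SP 3, against 18.0 to 62.7 FPKM in the other 10. The 10 striatum markers summed to 418 FPKM in FMT-DSS 3 against 69.0 to 206 FPKM elsewhere. The 8 pituitary and hypothalamus markers summed to 3582 FPKM in FMT-CON 3 against 2.38 to 24.8 FPKM elsewhere. Most of that sum was the pituitary hormone genes Gh and Prl, at 2899 and 621 FPKM. Pomc, Cga and Tshb were also highest of 12 in FMT-CON 3. The hypothalamic genes Avp, Oxt and Hcrt were not, at 0.589, 0.0974 and 0.0474 FPKM there. The 8 choroid plexus markers summed to between 54.8 and 4194 FPKM. The 13 mitochondrially encoded genes took 27.7%, 29.0% and 24.0% of all FPKM in the library numbered 4 of FMT-CON, FMT-DSS and FMT-SP, and 15.9% to 20.3% in the other 9. In bulk tissue, fewer cells of a type and less RNA per cell cannot be told apart.

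Snap25 and Vamp2, SNAREs that drive fusion at the terminal, were the most abundant members. Snap25, the membrane SNARE of the neuronal terminal, had 656, 745, 796 and 699 FPKM in FMT-CON 1 to 4, 729, 732, 646 and 662 FPKM in FMT-DSS 1 to 4, and 750, 744, 736 and 686 FPKM in FMT-SP 1 to 4. With a mean of 715 FPKM it was the 24th most abundant gene of the table, and its groups overlapped throughout. Vamp2 (synaptobrevin 2), the vesicle SNARE, followed at rank 69 with 355, 416, 436 and 435 FPKM in FMT-CON, 410, 435, 395 and 397 FPKM in FMT-DSS, and 434, 406, 376 and 451 FPKM in FMT-SP. Its lowest value was in FMT-CON 1 and the other 11 libraries lay between 376 and 451 FPKM. Stx1a, a syntaxin of the terminal, had 20.7, 33.0, 32.9 and 35.8 FPKM in FMT-CON, 40.8, 26.2, 28.2 and 27.3 in FMT-DSS, and 45.2, 35.6, 23.4 and 40.9 in FMT-SP. Low Stx1a values occurred in FMT-CON 1 and FMT-SP 3, the libraries with the most thalamus marker RNA, and whether that moved Stx1a was not tested. Snap23, the broadly expressed relative of Snap25, stayed between 3.32 and 4.54 FPKM.

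Among calcium sensors, Syt1, the sensor of fast synchronous release, led with a mean of 268 FPKM and a range from 185 FPKM (FMT-DSS 4) to 331 FPKM (FMT-DSS 2). Syt2, which replaces Syt1 in many hindbrain and inhibitory terminals, had 1.36 to 4.08 FPKM. Syt7, a slower sensor of high calcium affinity, had a median of 34.6 FPKM and a range from 31.0 to 45.9 FPKM, with its highest value in FMT-DSS 4, where Syt1 was lowest. The fusion clamps Cplx1 and Cplx2 averaged 251 and 177 FPKM. Of the vesicle proteins, Syn1 averaged 150 FPKM, Syn2 100.1 FPKM, Sv2a (the target of the antiseizure drug levetiracetam) 96.6 FPKM and Sv2b 48.8 FPKM. Among the active zone genes, Unc13a (Munc13-1) was highest with a mean of 37.7 FPKM. Bsn (Bassoon) followed at 16.1, Rims1 (the scaffold RIM1) at 14.4, Rims3 at 12.1 and Pclo (Piccolo) at 11.99 FPKM.

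**Figure D1:**
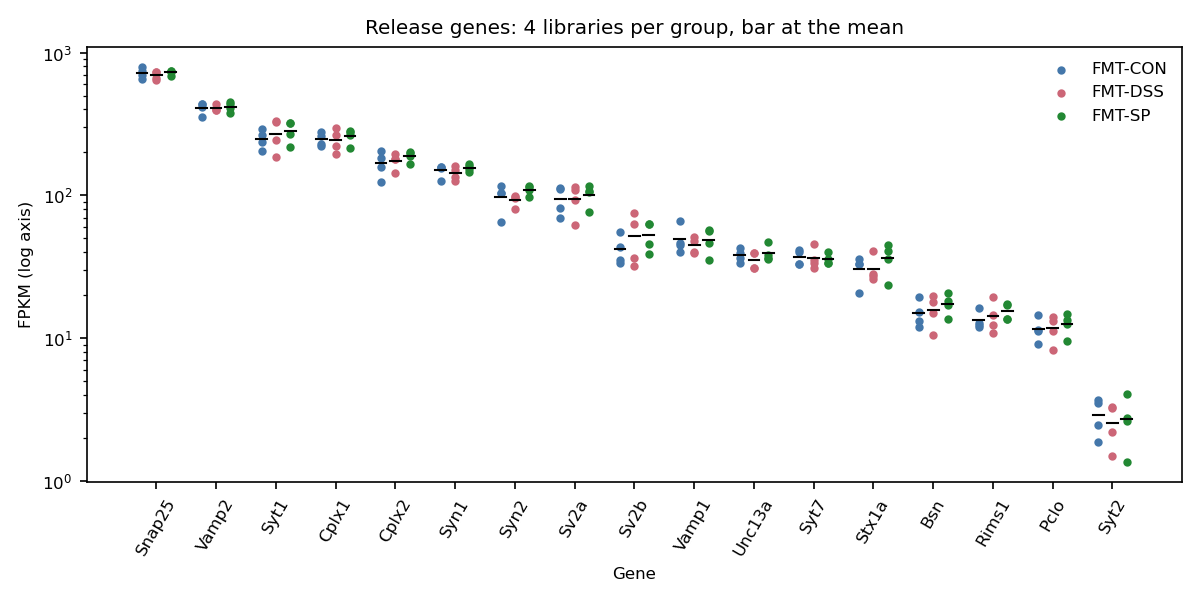
Level of 17 synaptotagmin, SNARE, complexin, synapsin, SV2 and active zone genes in each library (FPKM, log axis), by group with 4 points each and a bar at the group mean. Snap25 and Vamp2 lie highest with narrow ranges, from 646 to 796 and 355 to 451 FPKM, and the 3 groups overlap in every gene shown.

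Of the 60 tested members, 0 passed an adjusted p of 0.05 in any of the 3 comparisons by limma with Benjamini-Hochberg adjustment over 12559 genes, and neither did any other gene (a background of 0% each time). The smallest adjusted p of a member was 0.966 in FMT-DSS against FMT-CON, 0.999 in FMT-SP against FMT-DSS and 0.999995 in FMT-SP against FMT-CON. No member had groups that did not overlap in any comparison, against 1.75%, 1.27% and 0.494% of all tested genes. At an unadjusted p under 0.05 there was 1 member of 60 in FMT-DSS against FMT-CON (1.67%, with 4.06% of all genes), 1 in FMT-SP against FMT-DSS (1.67%, with 2.5%) and 0 in FMT-SP against FMT-CON (with 0.358%). Each share of members rests on at most 1 gene, so no difference from the whole table is read from it. The 3 comparisons share libraries, so their values are given side by side and are not independent.

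The first comparison sets FMT-DSS beside FMT-CON. The median change of the members on the log2(FPKM + 1) scale was -0.01, beside -0.03 for all tested genes, with 26 members higher and 34 lower, none past the test. Changes ran from -0.46 for Rims3 (-0.02 without FMT-CON 1) to 0.45 for Stxbp3. The smallest unadjusted p belonged to Stxbp6 (amisyn), which binds syntaxin and SNAP-25 in place of the vesicle SNARE. It had 21.1, 16.2, 19.4 and 13.2 FPKM in FMT-CON 1 to 4 and 13.2, 11.0, 15.4 and 11.9 FPKM in FMT-DSS 1 to 4. FMT-DSS 3 lay inside the range of FMT-CON and the other 3 FMT-DSS libraries below it, so the groups overlapped by 1 library. The difference was -0.40 ± 0.16 (SE), with an adjusted p of 0.966 by limma. Median-ratio rescaling of the libraries changed the split to 34 members higher and 26 lower, and quantile normalization to 31 and 29. Leaving out single libraries moved it between 17 higher and 43 lower (without FMT-DSS 1) and 39 higher and 21 lower (without FMT-DSS 4). It was 30 and 30 without FMT-CON 1, and 31 and 29 without FMT-CON 2 or FMT-CON 3.

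The second comparison sets FMT-SP, the group with substance P, beside FMT-DSS. The median change of the members was 0.09 beside 0.03 for all tested genes, with 41 members higher and 19 lower in FMT-SP, none past the test. All 9 active zone genes, all 3 complexins, both synapsins and all 3 SV2 genes had a positive change, from 0.00 to 0.23, where 58.9% of all tested genes had one. The synaptotagmins were 8 higher and 7 lower, the syntaxins 6 and 7, the SNAP genes 4 and 1, and the VAMP genes and the syntaxin binding proteins 3 and 2 each. The split depended on which libraries were left out. Without FMT-DSS 4, 31 members were higher and 29 lower, with a median of 0.01. FMT-DSS 4 was the lowest of 12 for Sv2a, Sv2b, Sv2c, Cplx1, Unc13a, Unc13c, Bsn, Pclo, Rims1 and Rims4. It was not the lowest for Cplx2, Cplx3, the synapsins, Rims2, Rims3 or Unc13b. The counts by family are for all 12 libraries and were not repeated without FMT-DSS 4. Without all 3 libraries numbered 4, 39 were higher and 21 lower, with a median of 0.05 beside 0.01 for all tested genes. The smallest unadjusted p belonged to Stxbp3, a syntaxin partner in plasma membrane traffic outside the terminal. Its FPKM were 11.99, 21.4, 9.69 and 19.96 in FMT-DSS 1 to 4 and 9.34, 9.36, 11.9 and 7.07 in FMT-SP 1 to 4, and 15.9, 10.4, 8.91 and 8.68 in FMT-CON 1 to 4. Only FMT-DSS 2 and FMT-DSS 4 lay above all FMT-SP and FMT-CON libraries. The difference was -0.64 ± 0.25 (SE), with an adjusted p of 0.999 by limma, and it was -0.20 without FMT-DSS 2 and FMT-DSS 4. The same pair was highest of all 12 for Stx17, a syntaxin of autophagosome fusion, at 7.38 and 6.34 FPKM against 3.85 to 5.17 FPKM elsewhere. That pair also stood apart in several microglia markers, given here in the order FMT-DSS 2, FMT-DSS 4. Cx3cr1 was at 1.12 and 2.20 FPKM against 7.37 to 13.9 FPKM elsewhere, and P2ry12 at 2.66 and 3.20 against 8.97 to 15.2. Tmem119 was at 2.83 and 3.13 against 6.63 to 8.33, and Siglech at 1.48 and 1.69 against 3.46 to 4.79. The remaining markers differed. C1qa was highest of all 12 in FMT-DSS 2, at 59.2 and 36.7 against 27.9 to 44.1. Csf1r was at 19.1 and 9.15 against 13.5 to 20.3, and Aif1 at 1.39 and 1.95 against 1.67 to 4.29. The whole list of 7 summed to 87.8 and 58.0 FPKM in the pair against 80.6 to 97.0 FPKM elsewhere, with none at 0, and its part in the values of Stxbp3 and Stx17 was not tested.

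The third comparison sets FMT-SP beside FMT-CON. The median change of the members was 0.04 beside -0.01 for all tested genes, with 37 higher and 23 lower, none past the test. The range ran from -0.40 for Syt9 (0.40 without FMT-CON 1) to 0.32 for Sv2b. Cplx2, with 124, 204, 183 and 159 FPKM in FMT-CON and 203, 197, 189 and 166 FPKM in FMT-SP, had the smallest unadjusted p of this comparison. Its difference was 0.19 ± 0.15 (SE), or 0.06 without FMT-CON 1, and the groups overlapped. Syn2 followed with a change of 0.20 ± 0.15 (SE) from 97.4 ± 22.0 FPKM to 109.6 ± 8.38 FPKM (SD, n = 4 each), where FMT-CON 1 alone was low at 65.6 FPKM; without it the change was 0.02.

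The intervals give the size of change that 4 libraries a group could resolve. The 95% interval of the change stayed within a 2-fold change of FPKM + 1 for 56, 56 and 57 of the 60 members in the 3 comparisons, in the order given above. For Snap25 it ran from -0.25 to 0.12 in FMT-DSS against FMT-CON, from -0.11 to 0.26 in FMT-SP against FMT-DSS, and from -0.17 to 0.20 in FMT-SP against FMT-CON. For Vamp2 the first of these ran from -0.20 to 0.20 and for Syt1 from -0.32 to 0.52. For Syt9 it ran from -1.94 to 1.37. A p that misses the threshold does not show that the groups are alike.

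**Figure D2:**
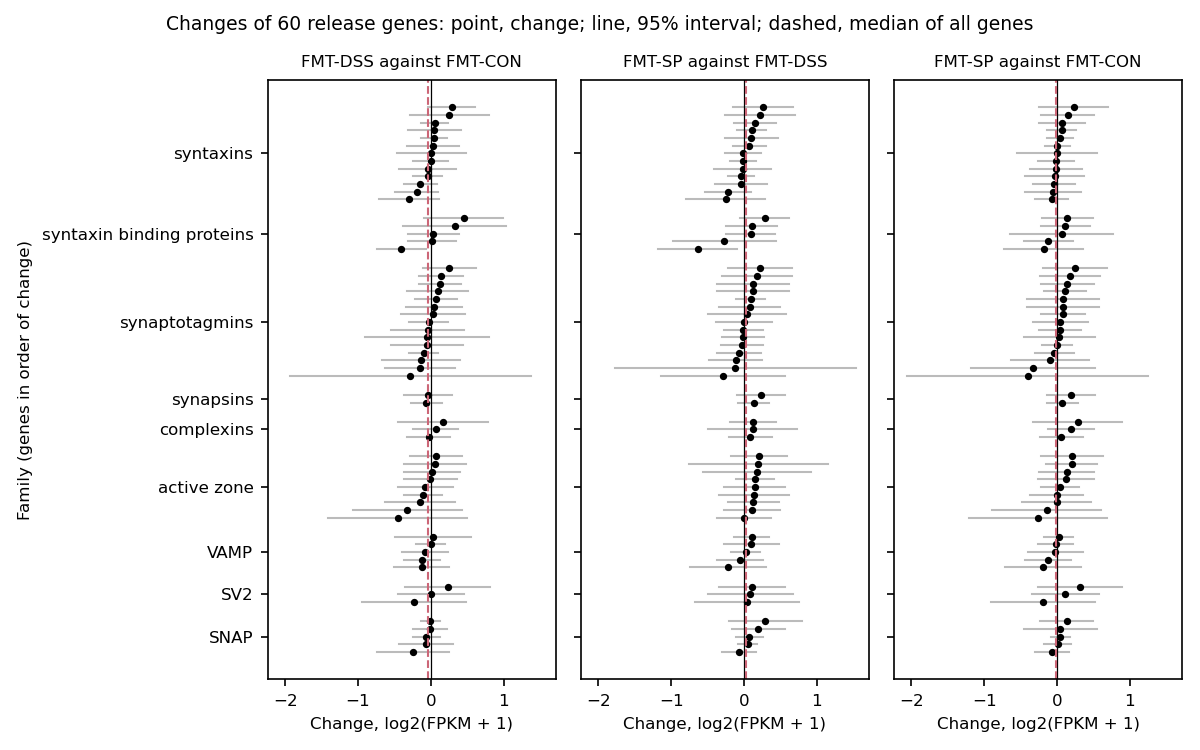
Change of each of the 60 tested members in the 3 comparisons (log2(FPKM + 1), point) with its 95% interval (line), grouped by family, and the median of all tested genes (dashed). Points lie between -0.64 and 0.45, and 2 intervals exclude 0, those of Stxbp6 in FMT-DSS against FMT-CON and Stxbp3 in FMT-SP against FMT-DSS.

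The other genes of the vesicle cycle, a list of 49 that covers SNARE disassembly, vesicle proteins, Rab3 and its effectors, further active zone scaffolds, presynaptic calcium channels and endocytosis, gave 0 genes past the test and 0 at an unadjusted p under 0.05 in all 3 comparisons. Of the 49, 24 were higher and 25 lower in FMT-DSS against FMT-CON (median -0.00), 36 higher and 13 lower in FMT-SP against FMT-DSS (median 0.07), and 41 higher and 8 lower in FMT-SP against FMT-CON (median 0.07). Of all 12559 tested genes, 5063, 7403 and 5869 were higher in these comparisons. The 49 genes were measured in the same libraries, so their signs are not independent. Their splits were not repeated with libraries left out, and no group effect is read from them. Slc17a6 of that list is also one of the thalamus markers and Slc32a1 one of the inhibitory neuron markers.

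The balance between close relatives, which needs no scaling of the libraries, was compared as the share of 1 gene in the summed FPKM of a pair. Cplx1 made up 55.3% to 69.2% of Cplx1 and Cplx2, and Syn1 56.0% to 65.9% of Syn1 and Syn2. Sv2a made up 60.1% to 77.0% of Sv2a and Sv2b, and Vamp1 7.22% to 15.7% of Vamp1 and Vamp2. Syt1 made up 98.5% to 99.4% of Syt1 and Syt2, and Snap23 0.444% to 0.658% of Snap23 and Snap25. FMT-CON 1 held the highest share of Cplx1, Syn1, Sv2a and Vamp1 and the lowest share of Syt1. Of the 21 exact two-sided permutation tests between groups, the smallest p was 0.229 and the adjusted p-values were 0.93 to 0.943. Before adjustment, 4 libraries against 4 can reach 0.0286 at the lowest, and no share reached that floor. A single test at the floor could not have passed the adjusted threshold over 21 tests. The adjusted p-values therefore cannot decide whether the share of any single pair differed, and no conclusion is drawn from them.

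**Figure D3:**
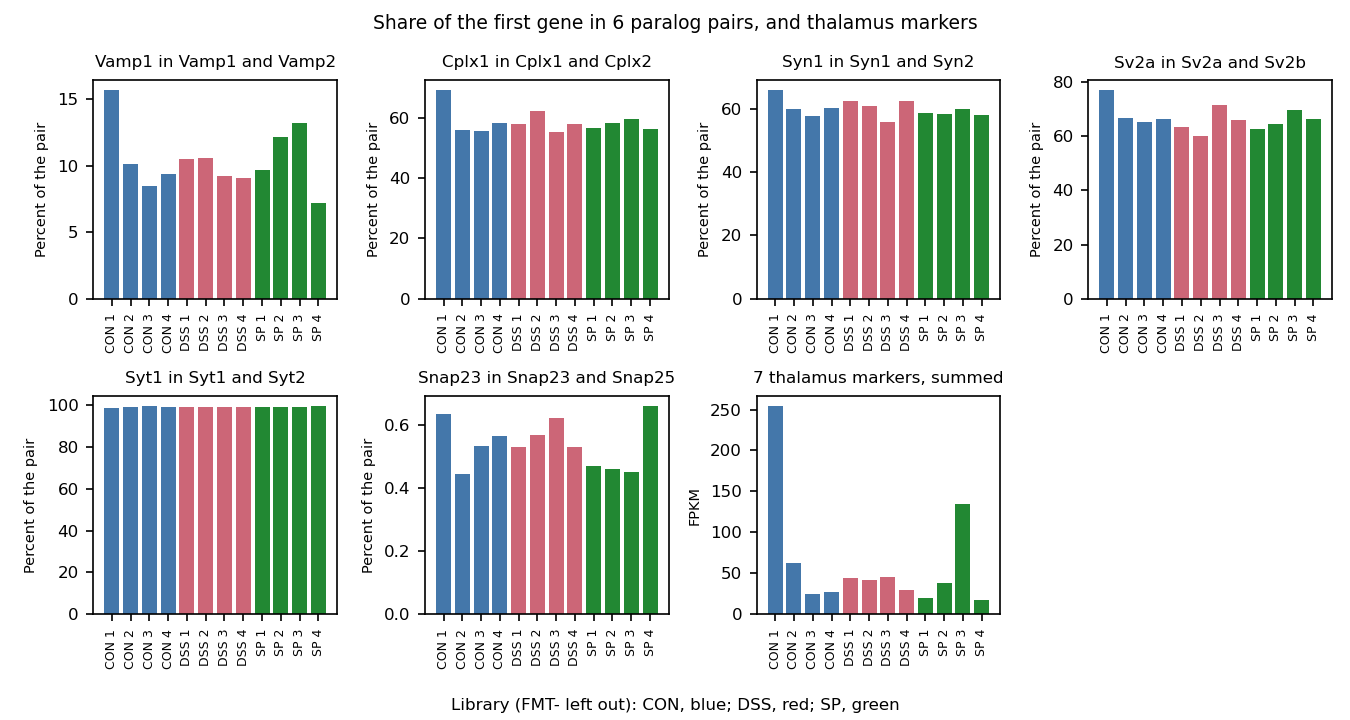
Share of the first gene in 6 pairs of related release genes (percent of the pair's summed FPKM) and the summed level of 7 thalamus markers (FPKM), one bar per library. FMT-CON 1 has the highest bar for Vamp1, Cplx1, Syn1 and Sv2a, at 15.7%, 69.2%, 65.9% and 77.0%, and for the thalamus markers, at 254 FPKM.

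Syt9, a fast calcium sensor of limbic and striatal neurons, spanned 22.4-fold over the 12 libraries and 19.5-fold within FMT-CON. It had 27.2, 3.505, 1.40 and 1.67 FPKM in FMT-CON 1 to 4, 2.43, 10.6, 2.63 and 1.57 FPKM in FMT-DSS 1 to 4, and 1.22, 2.71, 10.6 and 1.81 FPKM in FMT-SP 1 to 4. Each group held 1 library far above its other 3. Without FMT-CON 1, the change of Syt9 in FMT-DSS against FMT-CON turned from -0.28 to 0.52. Rims3, a short RIM form, had 33.2, 14.9, 6.91 and 7.43 FPKM in FMT-CON, 11.9, 11.7, 8.71 and 5.48 in FMT-DSS, and 10.2, 12.9, 16.5 and 5.46 in FMT-SP. Syt6, with a 7.03-fold range, and Unc13c (Munc13-3, best known from the cerebellum), with a 5.19-fold range, were also highest in FMT-CON 1, at 8.48 and 4.65 FPKM. In that library Syt9, Syt6, Rims3 and Unc13c stood at 11.2, 5.07, 3.25 and 2.47 times the median of the other 11, while Syt17, Syn2 and Cplx2 were the lowest of 12 at 0.559, 0.634 and 0.678 times. It also held the highest thalamus markers, with Tcf7l2 at 17.7 FPKM against 0.512 to 7.40 FPKM elsewhere. In FMT-SP 3, the next highest in thalamus markers, Syt9 and Rims3 were the highest of their group. FMT-DSS 2 held as much Syt9 with a thalamus sum of 42.3 FPKM. The sum of the choroid plexus markers, mostly Ttr, was highest of 12 in FMT-CON 1 (3920 FPKM), FMT-DSS 2 (3178) and FMT-SP 3 (4194), against 54.8 to 2401 FPKM elsewhere. Single markers differed in FMT-DSS 2. It lay below FMT-CON 2 for Kcnj13 (2.85 against 3.29 FPKM), Prlr (1.20 against 1.27) and Sostdc1 (3.19 against 6.15). For Ttr, Kl, Clic6, Folr1 and Enpp2 it lay above FMT-CON 2. The part of neighbouring tissue in these values was not tested. Sv2c, the SV2 form of the basal ganglia, was highest at 5.92 FPKM in FMT-DSS 3, the library highest in striatum markers.

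At the other end, Snap47, a SNAP-25 relative of intracellular membranes, stayed between 116 and 128 FPKM, a 1.10-fold range. Stx6, a syntaxin of the Golgi apparatus and endosomes, ranged 1.24-fold and Stx7, of late endosomes, 1.22-fold. Snap25 and Vamp2 ranged 1.23-fold and 1.27-fold. FMT-DSS 4 was the lowest of 12 libraries for 24 of the 60 members, the most of any library (40%, against 28% of all tested genes). It also had the lowest sum of the 7 general neuron markers, at 821 FPKM against 986 to 1127 elsewhere, and each but Rbfox3 was lowest there. The sums of the other neuron lists were not lowest. Hippocampal neuron markers summed to 181 FPKM in FMT-DSS 4, against 130 in FMT-CON 1 and 175 in FMT-DSS 3. Inhibitory neuron markers summed to 521 FPKM, beside a median of 520, though Gad1, Gad2 and Slc32a1 were lowest there. The part of neuron content in the member values was not tested.

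**Figure D4:**
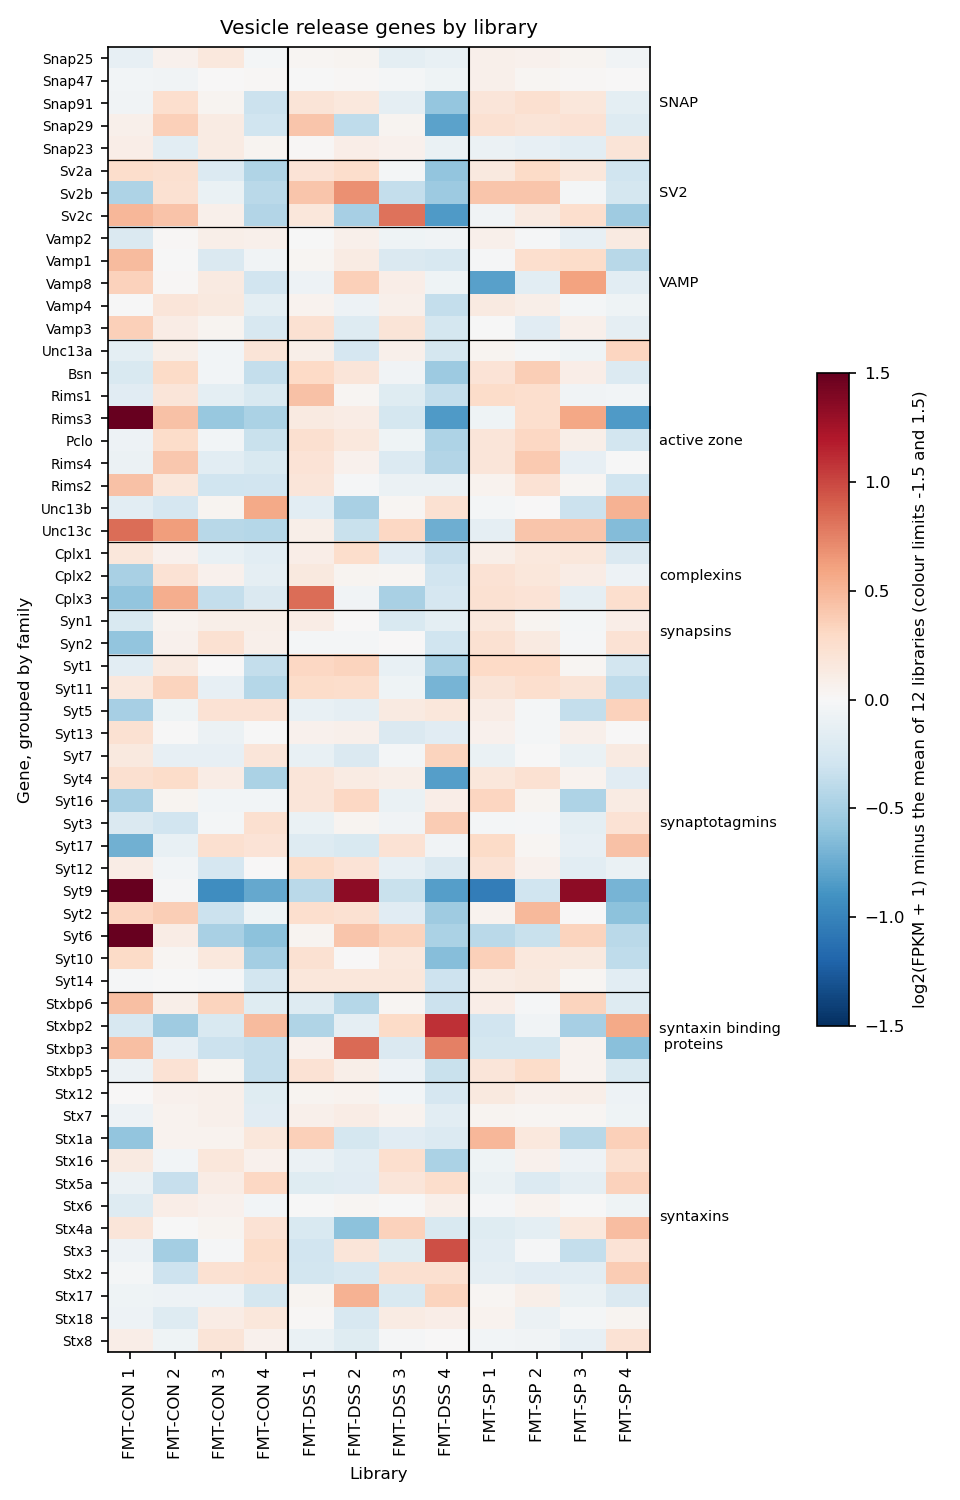
Deviation of each of 58 tested members from its mean over 12 libraries (log2(FPKM + 1), colours limited to 1.5 either side), by family, with lines between groups. Columns differ within each group, with FMT-CON 1 high in Rims3, Syt9 and Syt6 and the library numbered 4 of each group low in Syt1, Syt11, Syt4 and Sv2a.

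The libraries numbered 4, which had the highest mitochondrial share of their groups, also stood apart in genes across the whole table, and not only in members. They were set apart after their values had been seen, so the following is a description with no test. The library numbered 4 was the lowest of its group in all 3 groups for 19 of the 60 members (31.7%), against 25.6% of all tested genes, and the highest in all 3 for 7 members (11.7%), against 13.9%. Without FMT-DSS, the library was lowest in both remaining groups for 22 members (36.7%, with 31.4% of all genes) and highest in both for 9 (15%, with 20.4%). The median difference from the other libraries of the group was -0.22 for the members, -0.13 for the other vesicle cycle genes described above and -0.06 for all tested genes. By group, the members' median was -0.19 in FMT-CON, -0.28 in FMT-DSS and -0.15 in FMT-SP, beside -0.08, -0.09 and -0.02 for all genes.

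The 19 comprised 5 of 15 synaptotagmins, 3 of 9 active zone genes, 3 of 13 syntaxins, 2 of 3 SV2 genes, 2 of 5 syntaxin binding proteins, 2 of 5 SNAP genes, 1 VAMP gene and 1 complexin. Syt11, a synaptotagmin that does not bind calcium, had 77.9, 64.2 and 80.8 FPKM in the libraries numbered 4 of FMT-CON, FMT-DSS and FMT-SP and a mean of 119 FPKM in the other 9. The corresponding Syt1 values were 205, 185 and 217 FPKM beside a mean of 289, and those of Sv2a were 69.2, 62.5 and 76.6 FPKM beside 106. Syt1 fell short of the other 3 libraries of its group by 0.35, 0.68 and 0.48 on the log2 scale. Pclo and Bsn, the giant active zone scaffolds, were also among the 19. The 7 highest in all 3 groups were Stxbp2, Stx3, Unc13b, Stx5a, Stx2, Syt3 and Syt7. Stxbp2, better known from blood and epithelial cells, had 18.3, 28.7 and 19.6 FPKM in the libraries numbered 4 beside a mean of 11.0 FPKM in the other 9. The 2 synapsins, Snap25, Vamp2 and Snap47 were in neither list.

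Members with long transcripts were lower in these libraries than members with short ones. Over the 60 members, Spearman's rho between the length of the longest protein-coding transcript and the mean difference from the other libraries of the group was -0.38, beside -0.46 over 11731 genes with a length. The points share the same 12 libraries, and no p is given. The 20 longest transcripts (4800 to 20084 bases) had a median difference of -0.37 and the 20 shortest (1456 to 2939 bases) one of 0.02. Unc13b and Unc13a, with 14754 and 10255 bases, departed from this order at 0.59 and 0.11. The part of RNA quality in the pattern was not tested.

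**Figure D5:**
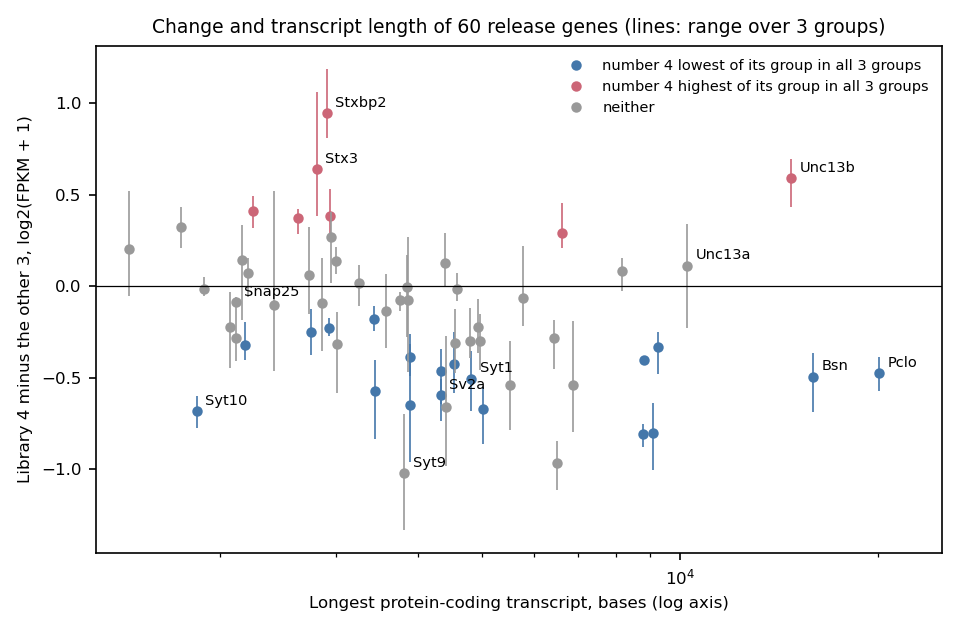
Length of the longest protein-coding transcript (bases, log axis) of each of the 60 members and the mean difference between the library numbered 4 and the other 3 of its group (log2(FPKM + 1)), with a line over the 3 groups. Pclo, Bsn and Syt1 lie below 0 at -0.47, -0.49 and -0.50, and Unc13b and Stxbp2 above it at 0.59 and 0.95.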

How the data were processed

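Total RNA of mouse hippocampal tissue was sequenced in 12 libraries. The authors deposited FPKM per gene; HISAT2 2.0 and mm8 are named in the submitters' processing notes without a role, and the sources used here give neither the read counter nor the annotation. Groups and numbers came from the sample titles. The rule for members uses gene symbols only, but it and the lists were drawn up with earlier results of these data known.

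Values were analysed as log2(FPKM + 1) for genes averaging 1 FPKM or more, in 1 limma 3.58.1 model (R 4.3.3) of all 12 libraries with group as the only term, a mean-variance trend, and Benjamini-Hochberg adjustment over 12559 genes at 0.05. The model was also run on simulated data in which each gene varied independently. Those data lack the variation that genes share within a library here, so no conclusion is drawn from that run. Shares were tested by exact permutation (70 assignments, scipy 1.17.1). Depth was estimated from steps of 1 fragment in 4713 single-transcript genes, where 39.4% to 42.0% of values lay within 0.05 of a whole number, against 10% by chance. Mitochondrial genes were the 13 encoded subunits, which carry no mt- prefix in the table. Lengths came from GENCODE vM21 (GRCm38), promoters from RefSeq; no coordinates of the submitters' build were used. Named members were, by rule, the 6 of smallest p per comparison, 19 core genes, the 8 most and 5 least variable, the highest of each family and both sides of the filter; others are named by role or within counts, and those in the paragraphs on libraries numbered 4 were named after their values were seen. Alternatives are listed in the closing section. Counts, medians and the family of share tests include 2 members that are not reported here by name.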

Additional observations from a re-analysis of the deposited data

Results flagged for a closer look

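Within groups of 4 libraries, 12 of 114 groups (38 named members in 3 groups) held a library whose gap to the nearest other took up more of the range than Dixon's 95% limit, where chance flags about 1 in 20. The 8 members named for their large SD gave 5 of the 12, so the count cannot be read against that rate. Syt9 was set apart in every group, with 27.2 FPKM in FMT-CON 1 (others 1.40 to 3.505), 10.6 FPKM in FMT-DSS 2 (others 1.57 to 2.63) and 10.6 FPKM in FMT-SP 3 (others 1.22 to 2.71). Syt6 had 3.25 FPKM in FMT-SP 3 (others 1.54 to 1.67).

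Syt14 was low in 2 libraries numbered 4, at 1.06 FPKM in FMT-CON 4 (others 1.47 to 1.49) and 1.01 FPKM in FMT-DSS 4 (others 1.80 to 1.82). Also low in a library numbered 4 were Stx17 in FMT-CON 4 (3.85 FPKM, others 4.53 to 4.57), Stx7 in FMT-SP 4 (44.6 FPKM, others 48.0 to 48.3) and Syn2 in FMT-DSS 4 (80.3 FPKM, others 96.7 to 99.5). Syn1 was low in FMT-CON 1 (127 FPKM, others 155 to 159) and Cplx3 in FMT-SP 3 (3.66 FPKM, others 4.88 to 5.08). Stx1a was high in FMT-DSS 1 (40.8 FPKM, others 26.2 to 28.2).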

How the results depend on the processing

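No member passed the adjusted threshold in the 3 group comparisons under any alternative run: a pseudocount of 0.1, a filter at 0.1 FPKM or none, median-ratio rescaling, quantile normalization, equal totals without mitochondrial genes and number 4 as a covariate (both chosen after seeing the data), leaving out each library, and leaving out the libraries numbered 4, FMT-DSS 2 and 4, or FMT-DSS 3 and FMT-CON 1. With a replicate block (the number as a factor), 0 members were called; at an unadjusted p under 0.05 there were 1, 3 and 0 members, and 1274, 885 and 310 genes in place of 510, 314 and 45. The main model did not take the shared numbers as pairs. Correlations of same-numbered libraries ran from -0.45 to 0.84 over 12 pairs, and 7 of 12 libraries correlated best with their own number. These values do not settle whether the numbers mark pairs.

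The median change of the members ranged from -0.07 to 0.04 in FMT-DSS against FMT-CON, from -0.00 to 0.14 in FMT-SP against FMT-DSS and from 0.02 to 0.07 in FMT-SP against FMT-CON. In FMT-SP against FMT-DSS it was -0.00 without FMT-DSS 2 and 4. Without FMT-DSS 3, 5 members had an unadjusted p under 0.05 in each comparison with FMT-DSS (Stxbp6, Stxbp3, Stx16, Stx4a and Stx17), a share of 8.33% beside 9.54% and 6.32% of all genes; without FMT-DSS 2 or FMT-DSS 4 there were 0. Among 102 changes of named members, 184 sign changes under alternatives lay within 1 SE of 0 on at least one side; the causes were not tested. A level of 1 FPKM rests on about 62.9 to 74.5 fragments per 2000 bases of transcript. Syt14, the tested member nearest the filter, has a longest transcript of 9274 bases, where the same level rests on more fragments. The part of depth in the spread of weakly expressed members was not tested.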
